A study of Mus musculus with 8 samples.

Results

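Dendritic cells (DCs) exchange activating and inhibitory signals with T cells and other cells through surface molecules. The transcripts of 10 of these molecules, all called ligands here, are described in cells labelled as DCs from tumours of mice given a CD74 inhibitor. The genes were taken by symbol from the table of all measured genes. Cd40, Cd80, Cd83, Cd86, Icosl, Tnfsf9 and Icam1 formed the activating set of 7, and Cd274, Pdcd1lg2 and Cd200 the inhibitory set of 3. All 10 were among the 10825 genes listed, and 7 of the 10 passed the filter on low counts that left 6156 genes for testing. Cd80, Cd86 and Cd200 did not pass it. Wild-type (WT) mice carried tumours of E0771, a mouse mammary carcinoma cell line, and received PBS or DRQ, a CD74 inhibitor per the labels. Doses started on day 10, and the tumours were collected 3 weeks after injection of the tumour cells. Each group had 4 samples, and the labels do not say whether these were separate mice or pools, so a p-value sets a difference against the spread of these samples alone, and that spread may be technical. The markers used for the sort, the dose of DRQ and the age of the mice are not given in the sources used here.

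A T cell that meets its antigen on a DC also reads the ligands that stand beside it. CD80 and CD86 engage CD28, which promotes activation, and CTLA-4, which restrains it. CD40 on the DC receives the signal of CD40 ligand from helper T cells and drives DC maturation, in which CD83, CD80 and CD86 are raised. ICOS ligand and 4-1BB ligand, the products of Icosl and Tnfsf9, sustain T cells that are already activated, and ICAM-1 holds the contact together through the integrin LFA-1. PD-L1 and PD-L2, the products of Cd274 and Pdcd1lg2, inhibit T cells through PD-1, and CD200 acts on CD200R1 of myeloid cells. Several of these genes are not private to DCs: macrophages express Cd40, Cd86 and Cd274, activated lymphocytes express Cd83 and Cd274, and endothelial cells express Icam1 and Cd200.

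RNA was counted at the 3′ ends of transcripts, and each library held 361792 to 543892 counts. Values are given as counts per 1000000 (CPM) scaled by TMM factors, which adjust for differences in library composition. They were not brought to a per-length scale, so levels were compared between libraries and not between genes. The limit set by a count of 0 (3 counts) was, before TMM scaling, 5.52 CPM for the largest library and 8.29 CPM for the smallest. On the TMM scale 1 count came to 1.91 CPM in PBS replicate 1 and 3 CPM in PBS replicate 3, the extremes. Intervals and floors cover counting error only. As a set, the conventional DC markers were present in all libraries, with a summed level of 8019 to 14390 CPM in PBS against 15470 to 18180 CPM in DRQ. Counts were listed for 8 of 8 of them, though Zbtb46 had 0 counts in PBS replicate 1. T cell markers were also present in all libraries (9 of 10 listed, 1845 to 2688 CPM in PBS against 2371 to 2518 CPM in DRQ), as were natural killer and cytotoxic markers (8 of 8 listed, 11720 to 16520 CPM in PBS against 9896 to 15350 CPM in DRQ). In bulk samples of this kind, fewer cells of a type and less RNA per cell cannot be told apart.

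None of the 10 ligand genes passed the test between DRQ and PBS. With edgeR's quasi-likelihood test under Benjamini-Hochberg adjustment across all tested genes, 0 of the 7 tested members were called, where 0.0325% of all tested genes were called higher (2 of 6156, the interleukin-1 genes Il1b and Il1r2) and 0% lower. At an unadjusted p under 0.05, 2 of the 7 were higher in DRQ, Cd83 and Pdcd1lg2, and 0 were lower, and the same cut took 3.98% of all tested genes as higher. The DRQ and PBS libraries overlapped for all 10 members. Over all tested genes the DRQ libraries lay wholly above the PBS libraries in 2.14% and wholly below in 2.18%. In a fit with no filter on low counts, the estimates of all 10 members lay above 0, with a median log2 fold change of 0.64 and a range of 0.17 to 1.24, while 5493 of the 10825 listed genes (50.7%) lay above 0 with a median of 0.01. The adjusted p-values of the 10 in that fit ran from 0.600 to 0.981.

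**Figure D1:**
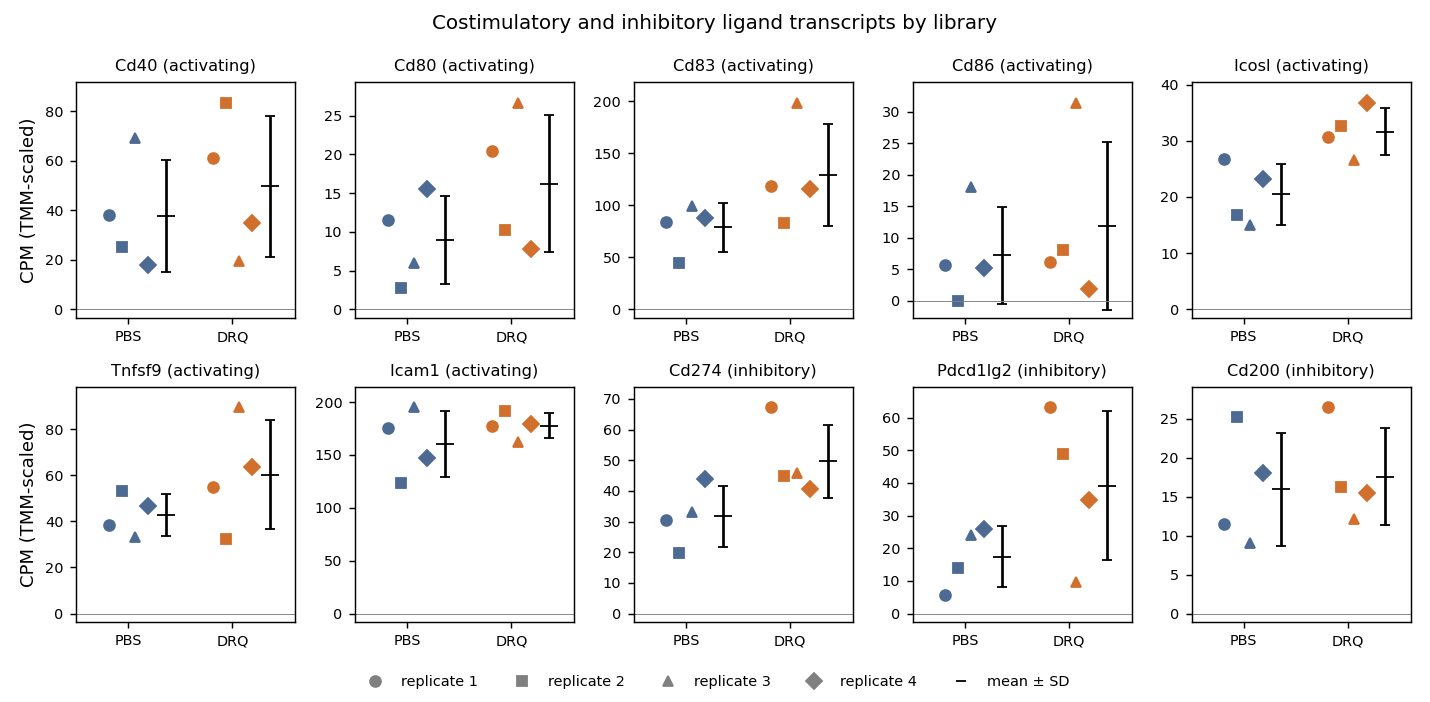
Each panel plots 1 ligand gene, with TMM-scaled CPM on the vertical axis, 4 PBS libraries in blue and 4 DRQ libraries in orange, the marker shape giving the replicate number and the bars the mean ± SD. Points of the 2 groups overlap in all 10 panels, and DRQ replicate 3 is the highest point for Cd80, Cd83, Cd86 and Tnfsf9 and the lowest DRQ point for Cd40, Icosl, Icam1, Pdcd1lg2 and Cd200.

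Among the activating ligands, Cd80 and Cd86, the classical ligands of CD28, were counted too rarely for a test. Cd80 had 6, 1, 2 and 6 counts in PBS replicates 1 to 4 and 10, 5, 11 and 4 counts in DRQ replicates 1 to 4. These correspond to 8.94 ± 5.64 CPM in PBS against 16.2 ± 8.84 CPM in DRQ (SD, n = 4). DRQ replicates 1 and 3 lay above every PBS library and the other DRQ libraries lay within the PBS range. Cd86 had 3, 0, 6 and 2 counts in PBS and 3, 4, 13 and 1 counts in DRQ, a mean of 7.23 ± 7.64 CPM in PBS against 11.9 ± 13.3 CPM in DRQ (SD, n = 4). The higher DRQ mean rested on DRQ replicate 3, which at 31.5 CPM held 13 counts (95% exact Poisson interval 6.92 to 22.2). With the filter removed, the log2 fold change of Cd80 was 0.80 ± 0.66 (SE) and that of Cd86 0.71 ± 0.87 (SE, adjusted p = 0.896 and 0.926, edgeR quasi-likelihood test, Benjamini-Hochberg adjustment). Without DRQ replicate 3 the estimate was 0.488 for Cd80 and -0.353 for Cd86. Cd80 ranged from there to 1.145 and Cd86 to 1.529 as other single libraries were left out, and Cd80 was 0.523 without PBS replicate 2. A difference in either gene was not detectable at this depth.

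Cd40, the receptor through which helper T cells license DCs, varied widely within both groups. Its levels were 38.2, 25.3, 69.1 and 18.1 CPM in PBS replicates 1 to 4 and 61.2, 83.4, 19.4 and 34.8 CPM in DRQ replicates 1 to 4. PBS replicate 3 was higher than DRQ replicate 1, and DRQ replicate 3 was close to the lowest PBS library, so the groups overlapped over most of their range. The means were 37.7 ± 22.6 CPM in PBS against 49.7 ± 28.3 CPM in DRQ (SD, n = 4). The log2 fold change was 0.42 ± 0.43 (SE, adjusted p = 0.892, edgeR quasi-likelihood test, Benjamini-Hochberg adjustment), no larger than its error. Leaving out 1 library moved it between 0.055 (without DRQ replicate 2) and 0.844 (without PBS replicate 3), and it was 0.675 without DRQ replicate 3 and 0.194 without PBS replicate 4. The coefficient of variation of Cd40 was 59.9% among PBS libraries and 57.1% among DRQ libraries, where counting alone would give 26.5% and 20.3%.

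Cd83, a surface protein that marks mature DCs and stabilises MHC class II and CD86 at the cell surface, stood at 84.1, 44.9, 99.1 and 87.8 CPM in PBS replicates 1 to 4. In DRQ replicates 1 to 4 it stood at 118, 83.4, 198 and 116 CPM. All DRQ libraries but replicate 2 lay above the highest PBS library, and DRQ replicate 3 was the highest of all. The mean was 79.0 ± 23.6 CPM in PBS against 129.0 ± 48.9 CPM in DRQ (SD, n = 4). The log2 fold change of 0.69 ± 0.28 (SE, 95% interval 0.15 to 1.24) did not pass the test (adjusted p = 0.577, edgeR quasi-likelihood test, Benjamini-Hochberg adjustment). Without DRQ replicate 3 the estimate was 0.42, which is over 1.5 times smaller.

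Icosl encodes the ligand of ICOS, a receptor of activated and regulatory T cells. It stood at 26.7, 16.9, 15.0 and 23.2 CPM in PBS replicates 1 to 4 and at 30.6, 32.5, 26.6 and 36.7 CPM in DRQ replicates 1 to 4. The overlap was a near tie of DRQ replicate 3 with PBS replicate 1, and the other 3 DRQ libraries were higher than every PBS library. Means were 20.5 ± 5.47 CPM in PBS against 31.6 ± 4.20 CPM in DRQ (SD, n = 4). Only 5 to 19 counts lay behind each value. The log2 fold change was 0.60 ± 0.41 (SE, 95% interval -0.21 to 1.41, adjusted p = 0.802, edgeR quasi-likelihood test, Benjamini-Hochberg adjustment).

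Tnfsf9 encodes 4-1BB ligand, a member of the tumour necrosis factor family that acts on activated T and natural killer cells. It stood at 38.2, 53.4, 33.0 and 46.5 CPM in PBS replicates 1 to 4 and at 55.1, 32.5, 89.5 and 63.8 CPM in DRQ replicates 1 to 4. DRQ replicates 1, 3 and 4 lay above every PBS library and DRQ replicate 2 below every one. The means of 42.8 ± 8.96 CPM in PBS against 60.2 ± 23.6 CPM in DRQ (SD, n = 4) gave a log2 fold change of 0.48 ± 0.35 (SE, adjusted p = 0.816, edgeR quasi-likelihood test, Benjamini-Hochberg adjustment). Without DRQ replicate 3, the highest library, the estimate was 0.242.

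Icam1 had the smallest difference and the smallest error of the 7 tested members. It stood at 176, 124, 195 and 147 CPM in PBS replicates 1 to 4 and at 177, 191, 162 and 180 CPM in DRQ replicates 1 to 4. Every DRQ library lay inside the PBS range. The mean was 160.4 ± 31.5 CPM in PBS against 177.6 ± 12.0 CPM in DRQ (SD, n = 4), with a log2 fold change of 0.15 ± 0.19 (SE, adjusted p = 0.922, edgeR quasi-likelihood test, Benjamini-Hochberg adjustment). Without PBS replicate 2, the lowest library, it was 0.048, and without PBS replicate 3, the highest, 0.245. The 95% interval of that fold change, -0.24 to 0.53, leaves room for a modest difference in either direction. The Icam1 promoter is shown because it held the letters of a GAS element, the site read by STAT proteins in interferon signalling, whose genes are described further on. It spans chr9:21015690-21015989 on the + strand (RefSeq, GRCm38.p6), from 250 bases before the start of the gene to 50 after it, with the match TTCNNNGAA in capitals at -42 to -34.
Icam1: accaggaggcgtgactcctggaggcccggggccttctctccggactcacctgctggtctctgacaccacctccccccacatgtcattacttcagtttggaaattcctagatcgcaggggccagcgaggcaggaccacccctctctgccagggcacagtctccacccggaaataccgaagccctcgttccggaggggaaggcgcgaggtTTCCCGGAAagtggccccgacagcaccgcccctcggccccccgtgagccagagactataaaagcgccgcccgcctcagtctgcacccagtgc
The GAS letters occurred on either strand in 8.3% of the 32851 mouse promoters of this length, so the match is a description of the sequence and not of binding.

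Among the inhibitory ligands, Cd274 encodes PD-L1, which is induced by interferon-gamma in most cell types and is the better known ligand of PD-1. It stood at 30.6, 19.7, 33.0 and 43.9 CPM in PBS replicates 1 to 4 and at 67.3, 44.8, 46.0 and 40.6 CPM in DRQ replicates 1 to 4. DRQ replicates 1 to 3 lay above every PBS library, and DRQ replicate 4 lay below PBS replicate 4 alone. The mean was 31.8 ± 9.95 CPM in PBS against 49.7 ± 12.0 CPM in DRQ (SD, n = 4). The difference came to a log2 fold change of 0.64 ± 0.36 (SE, 95% interval -0.08 to 1.35) (adjusted p = 0.744, edgeR quasi-likelihood test, Benjamini-Hochberg adjustment).

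Pdcd1lg2 encodes PD-L2, the second ligand of PD-1, whose expression is largely restricted to DCs and macrophages. Its levels were 5.73, 14.0, 24.0 and 25.8 CPM in PBS replicates 1 to 4 and 63.2, 48.8, 9.68 and 34.8 CPM in DRQ replicates 1 to 4. DRQ replicates 1, 2 and 4 lay above every PBS library, and DRQ replicate 3 lay inside the PBS range. The mean was 17.4 ± 9.35 CPM in PBS against 39.1 ± 22.8 CPM in DRQ (SD, n = 4). The log2 fold change of 1.22 ± 0.51 (SE, 95% interval 0.22 to 2.22) was the largest of the 7 tested members, and did not pass the test (adjusted p = 0.586, edgeR quasi-likelihood test, Benjamini-Hochberg adjustment). Leaving out 1 library at a time gave 0.88 to 1.53. The DRQ values differed by more than counting error: replicate 1 held 31 counts (95% exact Poisson interval 21.1 to 44.0) and replicate 3 held 4 (1.09 to 10.2).

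The genes of PD-L1 and PD-L2 are neighbours on mouse chromosome 19, and their promoters are shown because the ligands share a receptor while their library values differed. The Cd274 promoter spans chr19:29367188-29367487 and the Pdcd1lg2 promoter chr19:29410669-29410968, both on the + strand (RefSeq, GRCm38.p6). Capitals mark a match to the kappaB motif, the site of NF-kB, at -244 to -235 of Pdcd1lg2.
Cd274: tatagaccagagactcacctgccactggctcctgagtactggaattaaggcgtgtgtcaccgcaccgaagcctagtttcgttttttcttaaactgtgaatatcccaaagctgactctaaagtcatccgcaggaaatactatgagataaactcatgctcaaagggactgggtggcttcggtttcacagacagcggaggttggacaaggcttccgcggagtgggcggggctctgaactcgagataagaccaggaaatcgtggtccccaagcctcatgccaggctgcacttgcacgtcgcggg
Pdcd1lg2: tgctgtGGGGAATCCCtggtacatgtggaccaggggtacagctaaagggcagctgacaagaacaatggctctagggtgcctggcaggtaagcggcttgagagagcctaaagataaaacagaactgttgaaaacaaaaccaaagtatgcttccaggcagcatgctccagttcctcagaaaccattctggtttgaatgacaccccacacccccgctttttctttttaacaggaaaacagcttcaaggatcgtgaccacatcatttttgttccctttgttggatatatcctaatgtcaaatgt
The kappaB letters occurred in 4.51% of promoters, and the ISRE letters of interferon-regulated genes, GAAANNGAAA, in 3.44%, both searched on either strand. None of the GAS, ISRE and kappaB letters lay in this window of Cd274, which says nothing of sites elsewhere. Promoters were at hand for 6 of the 10 members, and those of Cd80, Cd200 and Icosl held none of the 3 motifs.

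Cd200, whose product restrains myeloid cells through CD200R1, had 6, 9, 3 and 7 counts in PBS replicates 1 to 4 and 13, 8, 5 and 8 counts in DRQ replicates 1 to 4. This gave 16.0 ± 7.30 CPM in PBS against 17.6 ± 6.22 CPM in DRQ (SD, n = 4). DRQ replicate 1 was the 1 DRQ library above the PBS range, and no difference was detectable at this depth. With the filter removed, the log2 fold change was 0.18 ± 0.55 (SE, adjusted p = 0.981, edgeR quasi-likelihood test, Benjamini-Hochberg adjustment), and its sign turned without PBS replicate 3 (-0.013) or without DRQ replicate 1 (-0.095).

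**Figure D2:**
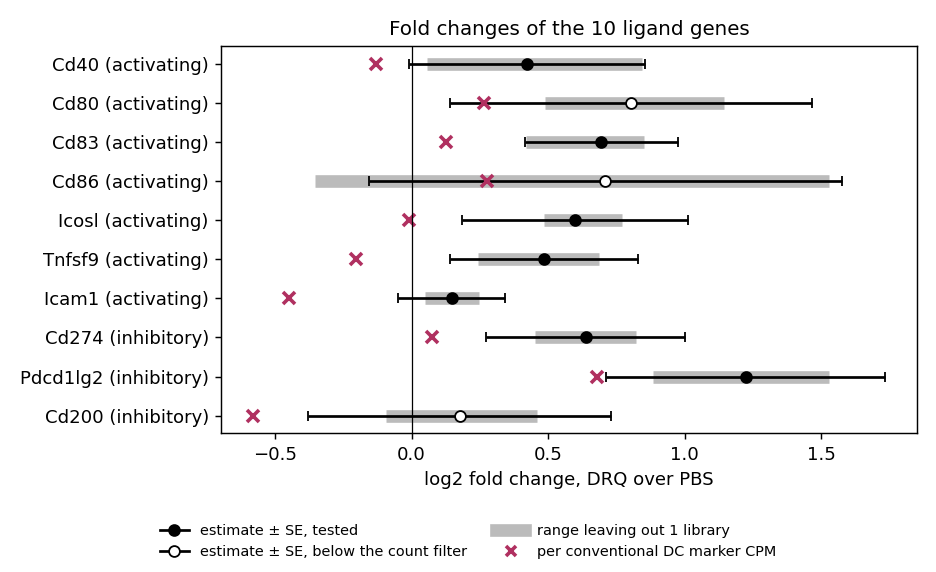
Log2 fold changes of DRQ over PBS are plotted for each ligand gene as points with bars of 1 standard error, filled where the gene was tested and open where it was below the count filter. Grey bands give the range when 1 library is left out and crosses the change per CPM of conventional DC markers. All 10 points lie above 0, from 0.15 for Icam1 to 1.22 for Pdcd1lg2, while the crosses of Cd40, Icosl, Tnfsf9, Icam1 and Cd200 lie below 0.

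The 2 sets were then compared as sums, for which no test was made because the members were chosen with results known. The 7 activating ligands summed to 380, 267, 436 and 343 CPM in PBS replicates 1 to 4 and to 469, 441, 554 and 441 CPM in DRQ replicates 1 to 4. Every DRQ sum was above every PBS sum, though the nearest pair lay at 435.6 and 440.6 CPM. The means were 356.5 ± 70.8 CPM in PBS against 476.3 ± 53.5 CPM in DRQ (SD, n = 4), a ratio of 1.34. The 3 inhibitory ligands summed to 47.8, 59.0, 66.1 and 87.8 CPM in PBS against to 157, 109.8, 67.8 and 90.8 CPM in DRQ. DRQ replicate 3 was inside the PBS range, and the means of 65.1 ± 16.9 and 106.3 ± 37.9 CPM (SD, n = 4) gave a ratio of 1.63.

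The balance of activating over inhibitory transcripts did not separate the groups. In replicate order it was 7.96, 4.52, 6.59 and 3.91 among the PBS libraries and 2.99, 4.02, 8.18 and 4.85 among the DRQ libraries. The lowest and the highest of the 8 values both came from DRQ libraries. The mean was 5.75 ± 1.87 in PBS and 5.01 ± 2.25 in DRQ (SD, n = 4), and the log2 ratio differed by -0.24, less than the spread between replicates (SD 0.547). With Icam1 left out of the activating sum the difference was -0.07, and with every member weighted equally it was -0.10.

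**Figure D3:**
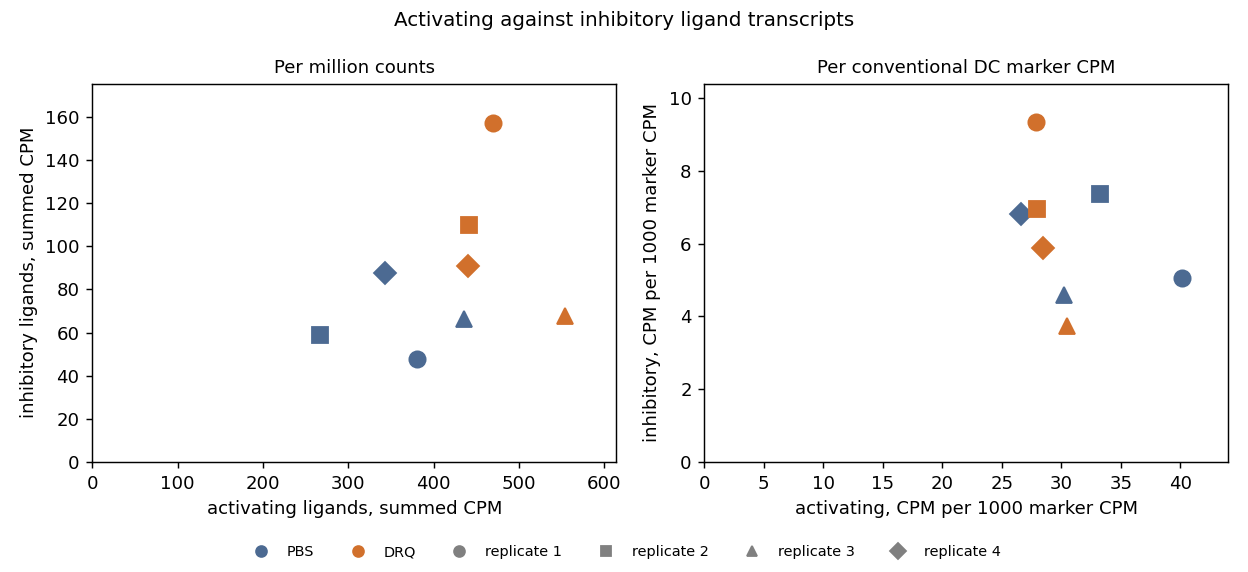
Each point is 1 library, with the summed activating ligands on the horizontal axis and the summed inhibitory ligands on the vertical axis, in TMM-scaled CPM on the left and per 1000 CPM of conventional DC markers on the right. On the left the 4 DRQ libraries lie at 441 to 554 CPM of activating ligands and spread from 67.8 to 157 CPM of inhibitory ligands, and on the right the DRQ points lie among the PBS points on the horizontal axis.

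The ligands did not move as 1 block across the DRQ libraries. DRQ replicate 3 had the highest Cd80, Cd83, Cd86 and Tnfsf9 of that group and the lowest Cd40, Icosl, Icam1, Pdcd1lg2 and Cd200. DRQ replicate 1 had the highest Cd274, Pdcd1lg2 and Cd200, the whole inhibitory set. Cd40 differed 4.31-fold between the highest and lowest DRQ library, Pdcd1lg2 6.53-fold and Cd86 16.3-fold. The coefficient of variation among DRQ libraries was 37.9% for Cd83 and 58.3% for Pdcd1lg2, against 12.9% and 22.8% from counting alone. Icam1 and Icosl varied by 6.73% and 13.3%, against 10.9% and 25.7% from counting. Among the PBS libraries, replicate 2, which had the fewest counts, was lowest for Cd80, Cd83, Cd86, Icam1 and Cd274.

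**Figure D4:**
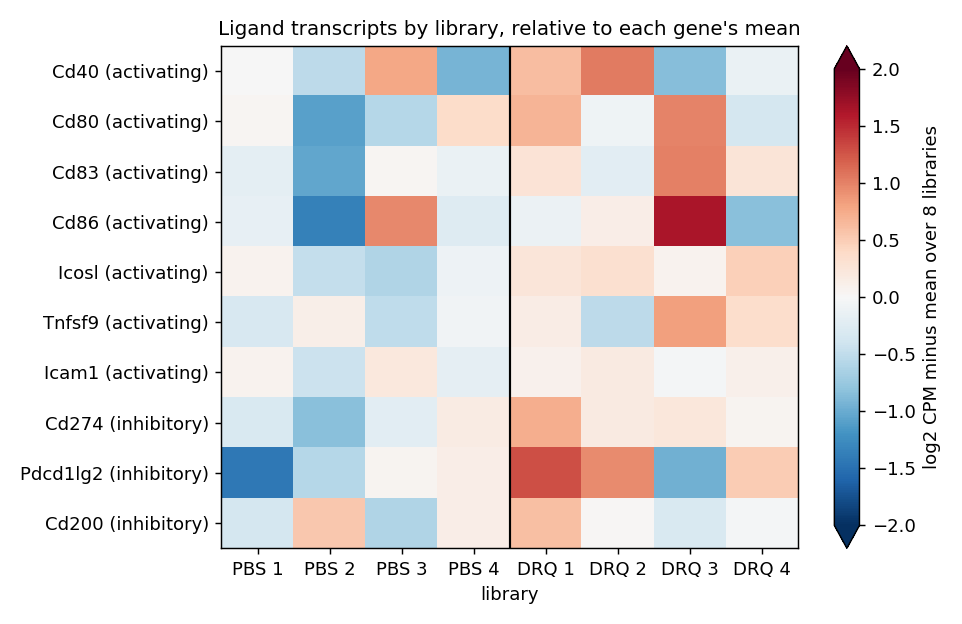
Rows are the 10 ligand genes and columns the 8 libraries, and colour gives log2 CPM minus the mean of that gene over the libraries, red above and blue below. The column of DRQ replicate 3 is red for Cd80, Cd83, Cd86 and Tnfsf9 and blue for Cd40 and Pdcd1lg2, and the inhibitory rows are reddest in DRQ replicate 1.

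Sums over some lists of DC markers differed between the groups. The summed conventional DC markers, of which Cd74 and 3 MHC class II chains made up 68.5% to 76.7%, were higher in every DRQ library than in every PBS library. Most of the remainder was Cst3 (mean 3039 CPM for PBS, 4117 CPM for DRQ). Little came from Itgax (207.9 against 186.2 CPM), Flt3 (32.5 against 49.0 CPM) and Zbtb46 (2.10 against 10.2 CPM). The groups overlapped for each of Cst3, Itgax, Flt3 and Zbtb46. The higher sum is therefore mainly a difference in Cd74, MHC class II and Cst3 transcripts. The summed type 2 conventional DC markers were also higher in every DRQ library (7 of 7 listed, 315 to 385.9 CPM in PBS against 431.2 to 775 CPM in DRQ). So were the summed regulatory T cell markers (6 of 6 listed, 792.6 to 1024 CPM in PBS against 1165 to 1330 CPM in DRQ). Within the type 2 list the groups were apart for Mgl2, Il1r2, Cd209a and Clec10a and overlapped for Sirpa, Irf4 and Itgam. Cd209a and Clec10a were below the count filter. Within the regulatory T cell list the groups were apart for Foxp3 and Tnfrsf4 and overlapped for Il2ra, Ctla4, Ikzf2 and Tnfrsf18. Over all tested genes, DRQ lay wholly above PBS in 2.14%. The type 1 list overlapped between groups (4 of 7 listed, 1322 to 2236 CPM in PBS against 1809 to 2522 CPM in DRQ), with no counts listed for its defining genes Xcr1 and Clec9a. The type 2 list was chosen with earlier results known and includes Il1r2, 1 of the 2 genes called in the whole comparison. Il1r2 averaged 111 CPM in PBS libraries and 260 in DRQ libraries, within list sums that averaged 346.5 and 626.2 CPM. The type 2 sum thus restates that call in part. The regulatory T cell list includes Ctla4. Zbtb46, a transcription factor of conventional DCs, was below the count filter, with 0, 1, 1 and 1 counts in the PBS libraries and 12, 3, 1 and 4 counts in the DRQ libraries. Its DRQ values of 24.5, 6.10, 2.42 and 7.73 CPM were led by replicate 1, and replicate 3 lay inside the PBS range. The part of these marker differences in the ligand values was not tested.

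Divided by the conventional DC markers, a scaling chosen after seeing the data and left without a test, the activating sum no longer separated the groups. Per 1000 CPM of the markers it was 40.1, 33.3, 30.3 and 26.6 CPM in PBS replicates 1 to 4 and 27.9, 28.0, 30.5 and 28.5 CPM in DRQ replicates 1 to 4. The DRQ values all lay inside the PBS range, with means of 32.6 ± 5.72 in PBS and 28.7 ± 1.21 in DRQ (SD, n = 4). The inhibitory sum was 5.95 ± 1.34 in PBS and 6.48 ± 2.34 in DRQ (SD, n = 4), again with overlap. On this scale the log2 difference was 0.68 for Pdcd1lg2, 0.28 for Cd86, 0.27 for Cd80, 0.13 for Cd83 and 0.08 for Cd274. It was below 0 for Cd40, Icosl, Tnfsf9, Icam1 and Cd200, from -0.009 for Icosl to -0.58 for Cd200. Cd74, which encodes the target of the inhibitor, and 3 MHC class II chains formed most of the divisor, so these values also carry any difference in those genes. Each was higher in every DRQ library than in every PBS library, as were 2.14% of all tested genes. The log2 fold changes were 0.63 for Cd74, 0.62 for H2-Ab1, 0.55 for H2-Aa and 0.70 for H2-Eb1. The groups overlapped for Flt3 (0.57), Cst3 (0.44) and Itgax (-0.16). With a divisor that was itself higher in DRQ, this scale cannot tell lower ligand transcripts from higher marker transcripts. Nor is it a scale per DC, because Flt3, Itgax and Zbtb46 made up little of the divisor.

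Other cells that express ligand genes left markers in these libraries. Macrophage markers (6 of 8 listed) summed to 198.8 to 679.5 CPM in PBS against 203.4 to 1057 CPM in DRQ, and monocyte markers (3 of 5 listed) to 221.8 to 459.6 and 324.3 to 445.4 CPM. Plasmacytoid DC markers (4 of 5 listed) summed to 502.6 to 973.2 CPM in PBS against 670.6 to 964.1 CPM in DRQ. Endothelial markers, of which counts were listed for 4 of 5, summed to 57.07 to 118.8 CPM in PBS against 97.63 to 138.7 CPM in DRQ. Neutrophil markers ranged from 6.008 to 121.3 CPM in PBS against from 24.41 to 135.3 CPM in DRQ (4 of 6 listed), and epithelial markers from 120.2 to 247.1 and from 30.59 to 156.5 CPM (4 of 5 listed). All of these ranges overlapped between the groups. Of the B cell list, counts were listed for Cd79b alone, at 0 to 17.19 CPM in PBS against 1.933 to 10.17 CPM in DRQ, and for none of the 5 fibroblast markers. Of the 9 tested T cell markers, 6 estimates lay above 0 and 0 were called. At an unadjusted p under 0.05, 4 of them were higher in DRQ and 0 lower. The same cut took 3.98% of all tested genes as higher. Which cells the ligand transcripts came from was not tested.

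The receptors that read these ligands were counted in the same libraries, and 0 of the 8 tested were called. Counts were listed for 9 of 11 receptor genes, 5 of the 8 estimates lay above 0, and their median log2 fold change was 0.15, where 2979 of all 6156 tested genes lay above 0 with a median of -0.01. Ctla4, the inhibitory receptor of CD80 and CD86 carried by regulatory T cells, had a mean of 101.5 ± 10.4 CPM in PBS libraries and 154.3 ± 36.3 in DRQ libraries (SD, n = 4). The log2 fold change of Ctla4 was 0.60 ± 0.23 (SE, adjusted p = 0.528, edgeR quasi-likelihood test, Benjamini-Hochberg adjustment). Tnfrsf9, which encodes 4-1BB, the receptor of 4-1BB ligand, had a mean of 603 ± 87.3 CPM in PBS libraries and 774 ± 139.5 in DRQ libraries (SD, n = 4), with a log2 fold change of 0.36 ± 0.15 (SE, adjusted p = 0.585 by the same test). Ctla4 and Tnfrsf9 were the receptors with an unadjusted p under 0.05, a cut that took 3.98% of all tested genes as higher. The groups overlapped for Ctla4 and for Tnfrsf9. Pdcd1, which encodes PD-1, had a mean of 44.8 ± 22.1 CPM in PBS libraries and 40.9 ± 20.7 in DRQ libraries (SD, n = 4), a log2 fold change of -0.15 ± 0.41 (SE). The estimate for Icos was 0.33 ± 0.48 (SE). For the integrin chains that bind ICAM-1 the log2 fold changes were -0.12 ± 0.15 for Itgal, 0.26 ± 0.18 for Itgb2, 0.03 ± 0.24 for Itgam and -0.16 ± 0.19 for Itgax (SE). Cd200r1, the receptor of CD200, was too low for a test, at 7.86 CPM in PBS against 7.26 CPM in DRQ on average.

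Other costimulatory and coinhibitory ligands gave estimates on both sides of 0. Of 24 such genes, counts were listed for 17 and 11 were tested, of which 6 lay above 0, 0 were called and 0 had an unadjusted p under 0.05. Their median log2 fold change was 0.05. The smallest p-values belonged to Cd24a (0.64 ± 0.39), Lgals3 (-0.18 ± 0.14), Lgals9 (0.21 ± 0.17) and Cd48 (0.43 ± 0.34), all as log2 fold change ± SE. Cd24a encodes a surface glycoprotein that binds Siglec receptors, Lgals3 and Lgals9 encode galectins, and Cd48 encodes the ligand of the receptor 2B4.

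Regulators that act upstream of the ligand genes had estimates mostly above 0, with 0 called. NF-kB signalling raises Cd40, Cd80, Cd83, Cd86, Icam1 and Tnfsf9 in maturing DCs, and of 20 genes of that pathway 17 were tested. Of these, 16 lay above 0 with a median log2 fold change of 0.28. At an unadjusted p under 0.05, where 3.98% of all tested genes were higher in DRQ, 4 were higher. They were Tnfaip3, which encodes the feedback inhibitor A20, at 0.73 ± 0.17, the inhibitors Nfkbia at 0.38 ± 0.13 and Nfkbie at 0.61 ± 0.25, and the subunit gene Nfkb2 at 0.49 ± 0.19 (log2 fold change ± SE). The lowest adjusted p of these was 0.127, for Tnfaip3 (edgeR quasi-likelihood test, Benjamini-Hochberg adjustment). DRQ lay wholly above PBS for 3 of the 17, Tnfaip3, Nfkbia and Nfkbie, against 2.14% of all tested genes.

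Interferon signalling, which induces Cd274 through JAK kinases, STAT proteins and IRF1, was followed through 18 genes. Of these, 15 were tested, 13 lay above 0 with a median log2 fold change of 0.27 and 0 were called. At an unadjusted p under 0.05, where 3.98% of all tested genes were higher in DRQ, 3 were higher. Among these 3, Jak2 was at 0.56 ± 0.26 and Stat3 at 0.39 ± 0.17 (log2 fold change ± SE). Irf1, which did not reach that cut, was at 0.32 ± 0.17. DRQ lay wholly above PBS for 2 of the 15, Jak2 among them, against 2.14% of all tested genes.

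Mature DCs carry CCR7 for migration to lymph nodes together with costimulatory and PD-1 ligands, and counts were listed for 20 of 21 genes of that state. Of 17 tested, 14 lay above 0 with a median log2 fold change of 0.61 and 0 were called. At an unadjusted p under 0.05, where 3.98% of all tested genes were higher in DRQ, 5 were higher. The smallest p-values belonged to Cacnb3 (1.45 ± 0.35), a calcium channel subunit gene, Ccr7 (1.32 ± 0.29), the actin-bundling gene Fscn1 (0.70 ± 0.24) and the chemokine gene Ccl22 (1.27 ± 0.41), as log2 fold change ± SE, and the fifth gene was Il4i1 (0.71 ± 0.27). Among the tested genes of this list, DRQ lay wholly above PBS for Ccr7 alone, against 2.14% of all tested genes. DESeq2 called 4 genes of these pathways higher, among them Ccr7, Cacnb3 and Tnfaip3. The main edgeR fit, with no block and no library left out, called none of the 4.

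**Figure D5:**
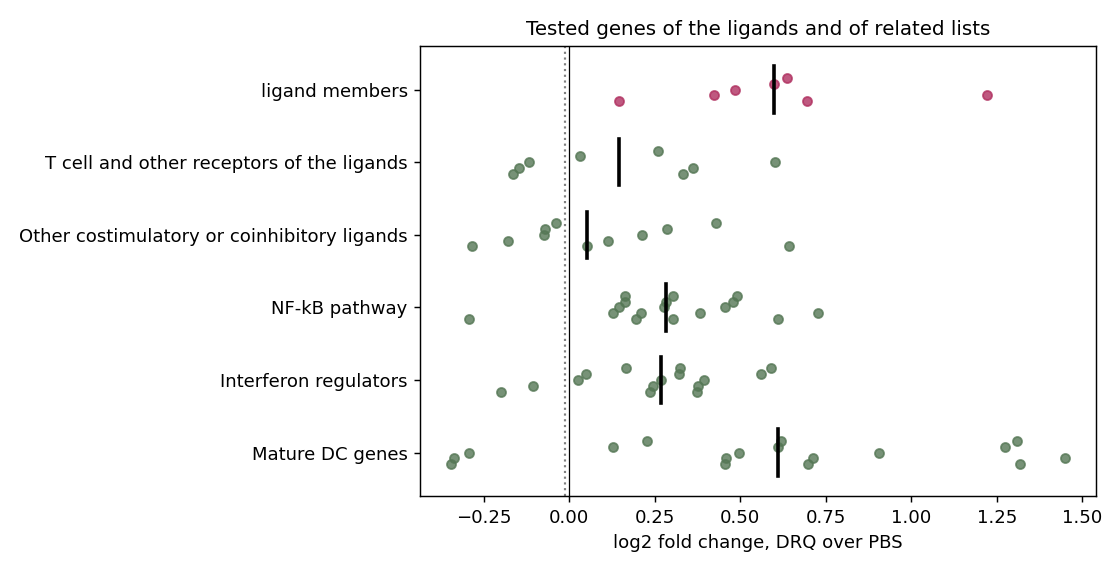
Points are log2 fold changes of DRQ over PBS for the tested genes of each list, with a bar at the median of the list, a solid line at 0 and a dotted line at the median of all tested genes. The medians run from 0.05 for other costimulatory or coinhibitory ligands to 0.61 for mature DC genes, and no gene shown passed the test.

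The genes whose library values lay nearest to each tested ligand were found by the root mean square difference of centred log2 CPM over the 8 libraries, among 6114 genes of at least 20 CPM. For Cd83 they were Pde4b (0.205), Il4i1 (0.212) and Dxo (0.219), where the values of Cd83 themselves deviated by 0.538 from their mean. For Cd274 they were Csrnp1 (0.116), Bhlhe40 (0.152) and Dgat1 (0.157), and for Pdcd1lg2 Trerf1 (0.384), Ube2l6 (0.414) and Kat6a (0.416). No candidate came closer to Pdcd1lg2 than that, against its own deviation of 0.876. Cd40 lay nearest to Il27ra (0.295), Snx11 (0.297) and Gm6030 (0.338), and Tnfsf9 to Camk4 (0.141) and Atp6ap1 (0.166). Icosl lay nearest to Abracl (0.082), Cabin1 (0.151) and Trim12a (0.155), and Icam1 to Cdk9 (0.096), Psmb8 (0.102) and Gmip (0.105). No 2 ligands shared a neighbour, and with 8 libraries such likeness is a description only.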

How the data were processed

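The deposited table of raw counts gives whole numbers for each Ensembl gene, from a bulk form of MARS-seq, per the labels' protocols. The deposited normalized table holds a signal, and all 86600 values equalled the count over a median-ratio size factor within 0.005. That table served an alternative only. Tools listed in the submitters' processing notes, with no role or order, were STAR 2.7.3a, HTSeq, bcl2fastq 2.20.0.422, cutadapt, DESeq2 1.26.0 and DESeq, and the build was GRCm39. UMI collapsing and the use of strand are not given in the sources used here. Symbols came from an annotation of another build, which matched 10788 of 10825 IDs.

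DRQ was tested against PBS on the counts in edgeR 4.0.16 under R 4.3.3 (TMM, filterByExpr, robust 2-sided quasi-likelihood F test, Benjamini-Hochberg adjustment over 6156 genes, threshold 0.05), after checking on simulated data. The changes planted in that simulation were larger than the estimate of any member, so the check does not cover smaller differences. The tested genes held 94.9% of the counts. Members below the filter took their estimates from a fit with no filter. Alternatives were DESeq2 1.42.0, limma 3.58.1, other scaling and filters, a replicate block and leaving out each library. Log2 CPM used a prior count of 2. Every pair of libraries differed beyond counting noise (chi-square over its degrees of freedom 2.60 to 4.21).

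The members, lists and tests were chosen with earlier results of these data known. Named genes were all members and receptors, up to 4 genes per other pathway list with the smallest p, and 3 nearest genes per tested member; a few of these are not reported here. Figures used matplotlib 3.10.9.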

Additional observations from a re-analysis of the deposited data

How the results depend on the processing

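No member was called under any alternative that gave a test; the lowest adjusted p was 0.392 for Cd83 and 0.438 for Pdcd1lg2, both without PBS replicate 3. Leaving out 1 library gave log2 fold changes of -0.353 to 1.529 for Cd86, below 0 without DRQ replicate 3, and of -0.095 to 0.459 for Cd200, below 0 without DRQ replicate 1 or PBS replicate 3 (-0.013). Per conventional DC marker CPM they turned for Cd40 (-0.129), Icosl (-0.009), Tnfsf9 (-0.205), Icam1 (-0.448) and Cd200 (-0.58). The cause was not tested. The log2 activating to inhibitory difference ran from -0.51 to -0.03, below 0 under every alternative run.

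Over all genes, the 2 called higher became 7 with library totals as the scale, 14 with DESeq2, 4 with limma-voom and 7 with no filter, and 0 to 12 when 1 library was left out, with 0 without DRQ replicate 3 and 12 without PBS replicate 4. The 0 called lower became 1 with DESeq2, 1 with no filter and 0 to 1 when 1 library was left out. Pathway genes called higher were 4 with DESeq2 and 0 to 1 when 1 library was left out, namely Cacnb3 without PBS replicate 3 and Ccr7 without DRQ replicate 4. With the replicate number as a block, 6 genes in all and 1 pathway gene, Ccr7, were called higher and 0 members. The labels do not say that libraries of the same number are paired. Deviations of same-numbered libraries from the group means correlated at -0.014 to 0.08, which does not settle whether they share a batch. DESeq2 gave an adjusted p to 3410 genes, among them the members Cd83 (0.560) and Icam1 (0.956) alone. At 361792 to 543892 counts per library, Cd80, Cd86 and Cd200 rested on at most 13 counts each per library.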

Other observations

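Il12b, which encodes a subunit of interleukin-12, a cytokine of mature DCs, had 0 counts in all 4 PBS libraries and 11, 6, 0 and 10 counts in DRQ replicates 1 to 4. It was singled out after its values were seen and was below the count filter. In the fit with no filter it had adjusted p = 0.166 (edgeR quasi-likelihood test, Benjamini-Hochberg adjustment). DRQ replicate 3, the DRQ library without Il12b counts, was the lowest of its group for Cd40, Icosl, Icam1, Pdcd1lg2 and Cd200. It was also the highest of its group for Cd80, Cd83, Cd86 and Tnfsf9.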
